A study of Caenorhabditis elegans with 12 samples.

Results

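To describe what raising worms on *cat-2* RNAi did to the transcriptome before any injury, the 4 libraries labelled *cat-2* RNAi were compared with the 4 libraries of worms raised on the empty vector (EV), out of 12 libraries of whole-worm poly(A) RNA. *cat-2* encodes tyrosine hydroxylase, the enzyme that makes L-DOPA from tyrosine in the few dopaminergic neurons of *C. elegans*, and *bas-1* encodes the decarboxylase that turns L-DOPA into dopamine. The hydroxylase needs tetrahydrobiopterin, which GTP cyclohydrolase (*cat-4*) and the following enzymes supply. CAT-1 then loads dopamine into vesicles, and DAT-1 brings released dopamine back into the neuron.

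All worms were day 1 adults of strain PMD216. Its genotype in the labels combines a GFP reporter under the *dat-1* promoter, a second transgene in which that promoter drives *sid1-SL2-rde-1*, the null allele *rde-1(ne219)* on chromosome V and *rrf-3(b26)* on chromosome II, and the study's methods add *fem-1(hc17)*, *eri-1(mg366)* and *lin-15B(n744)*. Feeding RNAi was thus built to act only where the *dat-1* promoter restores the RNAi genes, in dopaminergic neurons, in worms kept without progeny at a restrictive temperature. The groups differed in the *E. coli* they ate, which carried the *cat-2* clone, the *cat-1* clone or the empty L4440 vector. The 4 *cat-1* RNAi libraries entered the filter on low values and the estimate of the spread between replicates. They were also compared with EV and with *cat-2* RNAi, as results set beside the others, and they share the EV libraries as their reference.

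Read counts scaled to feature length and to the mapped reads of the library (RPKM) were deposited for 46739 features, of which 20423 were above 0 in at least 1 library. The 13161 features that reached 0.5 RPKM in 4 or more of the 12 libraries were compared on the log2(RPKM + 0.5) scale with limma, and p-values were adjusted over all of them by Benjamini-Hochberg. A further 7262 features were above 0 but too low to be compared. Of those compared, 82 had no EV library and 63 no *cat-2* RNAi library at the minimum, so these passed it only through other libraries. The libraries labelled *cat-2* RNAi held 18765779 to 20763857 mapped reads, and the EV libraries 19229569 to 20089688. *cat-2* RNAi replicate 2 stood apart from the other libraries, with a limma library weight of 0.331 against 0.629 in *cat-2* RNAi replicate 3 and 1.02 to 1.54 in EV. Fold changes below are *cat-2* RNAi over EV, and "rose" and "fell" are used only for an adjusted p under 0.05. A feature is counted below as nominally higher or lower where its limma p before adjustment was under 0.05, which held for 4.89% of all tested features (higher) and 3.95% (lower), and the share of features with a log2 fold change above 0 was 54.01%.

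The targeted gene went against its label. *cat-2*, on chromosome II from 257819 to 261074 (build ce11), had 39, 26, 27 and 64 reads in replicates 1 to 4 labelled *cat-2* RNAi, against 4, 4, 7 and 4 reads in the EV replicates. These are 1.16, 0.728, 0.837 and 1.90 RPKM in the libraries labelled *cat-2* RNAi, against 0.120, 0.121, 0.209 and 0.116 RPKM in EV. No library of the RNAi group overlapped with EV (p = 0.0286 in a two-sided exact permutation test, which with 4 libraries on each side can give none smaller). The ratio of reads was 8.17, with a 95% interval of 5.06 to 13.9 (exact, Clopper-Pearson) that covers counting error alone. The ratio of mean RPKM was 8.18, and 6.43 to 9.73 with any 1 of these 8 libraries left out. In the limma fit its log2 fold change was 1.32 ± 0.22 (SE) with an adjusted p of 0.0625 (0.0491 without *cat-2* RNAi replicate 2), and *cat-2* passed the minimum only through its own RNAi libraries. The 4 *cat-1* RNAi libraries together had 22 *cat-2* reads. *cat-1* was likewise higher in its own RNAi libraries, with 21, 12, 61 and 13 reads, against 15 reads over the 4 EV libraries. Reads of the mRNA and of other RNA with the same sequence, such as that of the fed clone, cannot be told apart in these values, and whether the labels are right was not tested. Directions below therefore hold for the libraries as labelled, and a loss of *cat-2* mRNA was not measured in them.

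The RNAi machinery that the transgene restores was read at like levels in the libraries labelled *cat-2* RNAi and in EV. *sid-1*, the double-stranded RNA channel, had a ratio of reads of 0.993 (0.963 to 1.02) and *rde-1*, the Argonaute of the RNAi pathway, 1.08 (1.06 to 1.12), and reads of the transgenes and of the chromosomal genes were not separated. The cohesin loader gene listed as *pqn-85*, which overlaps *cat-2*, had 44.7, 46.4, 43.1 and 44.6 RPKM in the libraries labelled *cat-2* RNAi, against 42.96, 43.1, 42.0 and 41.3 RPKM in EV. Its log2 fold change of 0.08 did not pass the test.

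Of 32 dopamine genes (synthesis, transport, receptors, breakdown and neuron identity), 24 were tested. None passed the adjusted test by limma, while *cat-2* and *ceh-20* were nominally higher and *qdpr-1* nominally lower. *bas-1* had 6.85, 7.79, 7.72 and 8.29 RPKM upon *cat-2* RNAi, against 6.97, 8.63, 8.72 and 8.86 RPKM in EV. The log2 fold change of *bas-1* was −0.10. Genes for the cofactor stood at 0.09 (*cat-4*), 0.07 (*ptps-1*) and −0.10 (*pcbd-1*), and *qdpr-1*, which regenerates it, at −0.15. *ceh-20*, a homeobox gene, stood at 0.36 and *comt-2*, annotated as a catechol-O-methyltransferase, at −0.45. *cat-1* and *dat-1* were too low to be tested, with 22 and 16 reads over the libraries labelled *cat-2* RNAi, against 15 and 10 reads over EV. Their ratios of 1.46 (0.723 to 3.02) and 1.59 (0.679 to 3.92) include no difference. The 7 markers of dopaminergic neurons summed to 10.2 to 12.22 RPKM in the libraries labelled *cat-2* RNAi, against 8.96 to 11.1 RPKM in EV. Without *cat-2* itself the other 6 summed to 9.06 to 10.3 RPKM in the libraries labelled *cat-2* RNAi, against 8.84 to 10.9 RPKM in EV, with means of 9.81 and 10.3 RPKM.

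Across all tested features 3 genes rose (0.0228% of those tested) and 1 fell (0.0076%). The arginine kinase gene *argk-1* fell, and the ferritin gene *ftn-1*, the nematode-specific peptide gene *nspc-12* and the noncoding RNA gene F56F3.7 rose. In the plot of fold changes these lie apart from the bulk of features, and *cat-2*, *cth-1* and C16B8.3 come next, each with an adjusted p of 0.0625.

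**Figure D1:**
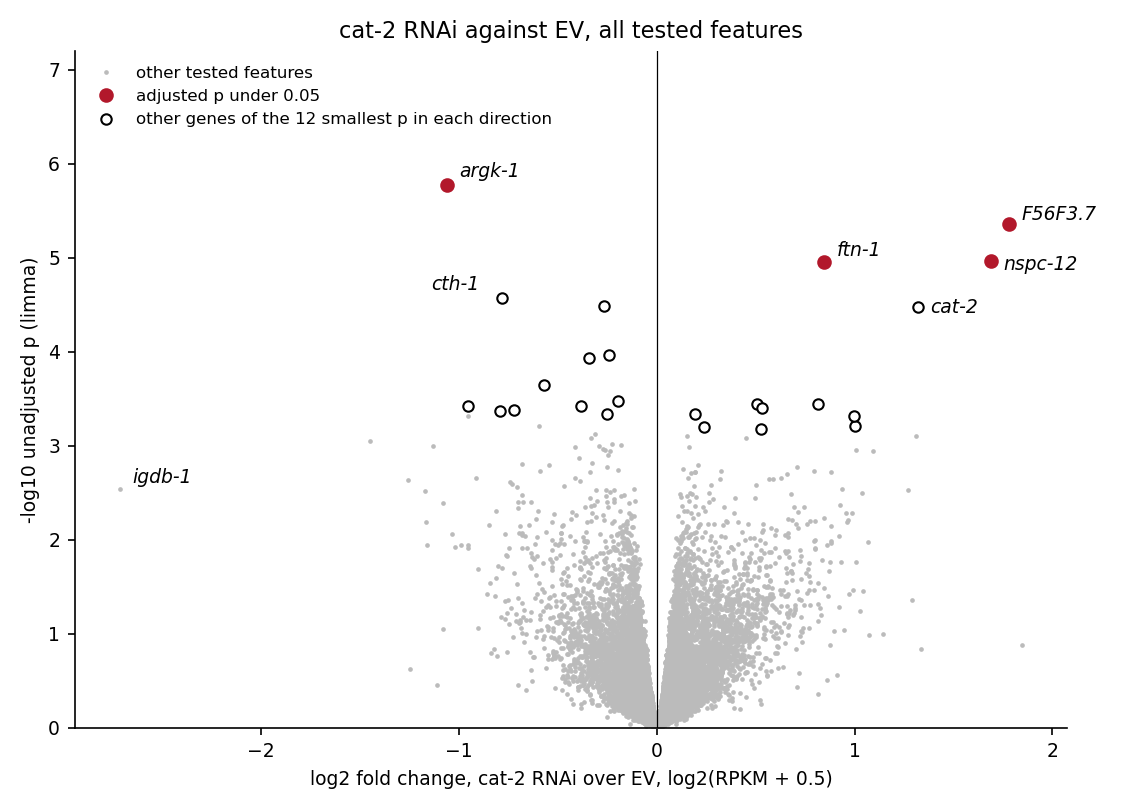
Each point is 1 of 13161 tested features, with the log2 fold change of *cat-2* RNAi over EV on the horizontal axis and −log10 of the unadjusted limma p on the vertical axis. The 4 filled points passed an adjusted p of 0.05, open circles are the remaining genes among the 12 with the smallest p in each direction, and *igdb-1* has the lowest fold change (−2.71).

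*argk-1* (listed as F44G3.2, chromosome V, 16103894 to 16105952) encodes an arginine kinase, an enzyme that stores high-energy phosphate on arginine as creatine kinase does on creatine in vertebrates. It had 9.24, 10.5, 12.55 and 7.07 RPKM in the libraries labelled *cat-2* RNAi, against 20.97, 18.6, 21.8 and 21.4 RPKM in EV. The highest library labelled *cat-2* RNAi thus lay below the lowest EV library. The means were 9.85 ± 2.297 and 20.7 ± 1.47 RPKM (SD, n = 4 each), with a log2 fold change of −1.06 ± 0.13 (SE) and an adjusted p of 0.0224 by limma. In the *cat-1* RNAi libraries *argk-1* was at 18.3 ± 1.79 RPKM, and the difference of *cat-2* RNAi from *cat-1* RNAi was −0.89 with an adjusted p of 0.144. Over 23 alternative settings the adjusted p of *argk-1* ran from 0.00130 to 0.130, and it passed in 15. It failed without *cat-2* RNAi replicate 1 (0.0650), EV replicate 3 (0.101), EV replicate 4 (0.130) or *cat-1* RNAi replicate 1 (0.0512). It also failed with only the 8 libraries compared (0.0797), no filter (0.0562), the replicate block (0.0890) and no trend or robust variance (0.0909).

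The remaining arginine kinase genes did not pass the test. F46H5.3 had the highest level of the family, with 347, 352, 329 and 362 RPKM upon *cat-2* RNAi, against 352, 429, 351 and 362 RPKM in EV. Its log2 fold change was −0.10, that of ZC434.8 −0.09 and that of W10C8.5 −0.16. The fifth gene, F32B5.1, was too low to be tested.

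The neighbor of *argk-1* on the same strand, *cth-1*, lies before it with a gap of 1143 bases. *cth-1* encodes cystathionine gamma-lyase, which makes cysteine in the transsulfuration pathway. It had 18.4, 21.9, 25.6 and 17.4 RPKM in the libraries labelled *cat-2* RNAi, against 33.5, 31.5, 39.1 and 39.7 RPKM in EV. The groups did not overlap, and the log2 fold change of −0.78 ± 0.13 (SE) missed the test at an adjusted p of 0.0625. It passed without *cat-2* RNAi replicate 3 (adjusted p = 0.0242). Its level in the *cat-1* RNAi libraries was 33.3 ± 4.79 RPKM. Among the 4 tested neighbors within 20 kb of *argk-1*, *cth-1* was the only one nominally lower, while *str-7* stood at −0.39, F22B8.7 at −0.12 and *skr-3* at −0.07. Of 15 tested transsulfuration and sulfide genes, 1 was nominally lower (*cth-1*) and 0 were higher. Cystathionine beta-synthase (*cbs-1*), the step before *cth-1*, stood at 0.11.

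**Figure D2:**
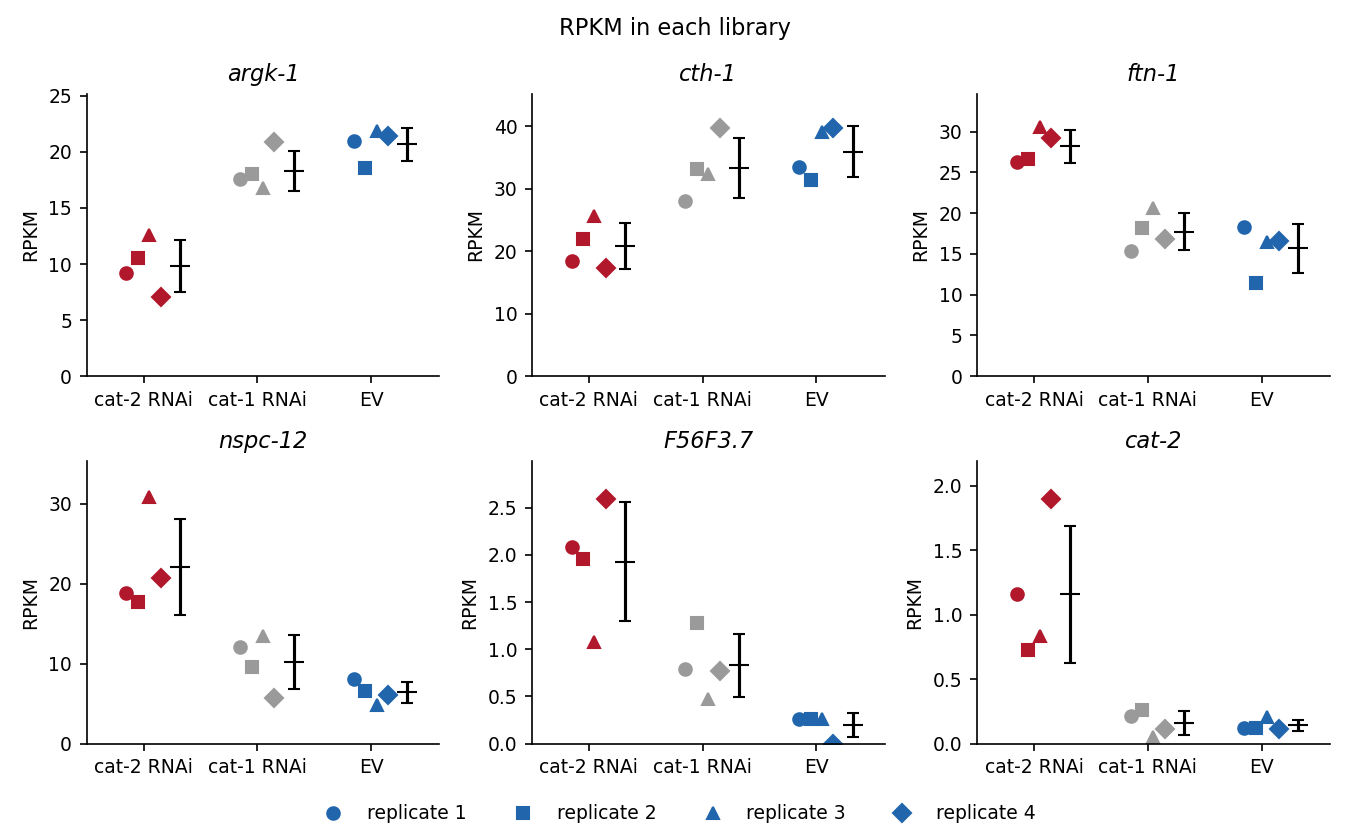
RPKM of *argk-1*, *cth-1*, *ftn-1*, *nspc-12*, F56F3.7 and *cat-2* in each library of *cat-2* RNAi (red), *cat-1* RNAi (gray) and EV (blue), with a marker shape for each replicate and the mean ± SD beside the points (n = 4). In every panel the 4 *cat-2* RNAi libraries lie outside the range of the 4 EV libraries.

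*ftn-1* (chromosome V, 7546468 to 7547579) encodes a ferritin heavy chain, the shell in which cells store iron, and is expressed in the intestine. It had 26.3, 26.7, 30.6 and 29.2 RPKM in the libraries labelled *cat-2* RNAi, against 18.3, 11.398, 16.46 and 16.6 RPKM in EV. All 4 were above every EV library, with means of 28.2 ± 2.04 and 15.7 ± 2.97 RPKM (SD, n = 4 each). The log2 fold change was 0.85 ± 0.13 (SE) with an adjusted p of 0.0367 by limma. In the *cat-1* RNAi libraries *ftn-1* was at 17.7 ± 2.24 RPKM, and *cat-2* RNAi differed from *cat-1* RNAi by 0.66 (adjusted p = 0.22). None of 7 tested neighbors within 20 kb had an unadjusted p under 0.05, and they ranged from −0.35 to 0.25. *ftn-1* passed in 8 of 23 alternative settings. It failed with only the 8 libraries compared (adjusted p = 0.103), median-of-ratios scaling (0.0675) and quantile normalization (0.0718). The adjusted p was 0.0678, 0.122 and 0.201 without *cat-2* RNAi replicate 1, 3 or 4, 0.155 and 0.140 without EV replicate 3 or 4, and 0.0530, 0.0985 and 0.0617 without *cat-1* RNAi replicate 1, 2 or 4.

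The second ferritin gene, *ftn-2*, had 169, 156, 167 and 161 RPKM upon *cat-2* RNAi, against 165, 182, 168 and 161 RPKM in EV. The groups overlapped and the log2 fold change was −0.05. Of 18 tested iron genes (storage, transport and regulators), only *ftn-1* was nominally higher, and *hrg-4* and *fpn-1.2* were nominally lower. *hrg-4*, a heme importer, had 1.97, 3.76, 2.57 and 3.27 RPKM in the libraries labelled *cat-2* RNAi, against 3.97, 4.06, 4.88 and 3.46 RPKM in EV (log2 fold change −0.46). *fpn-1.2*, a homolog of the iron exporter ferroportin, stood at −0.37 with no overlap of the groups, and the heme transporter *hrg-1* at −0.32. Neither *hrg-4* nor *fpn-1.2* passed the adjusted test. The 13 tested genes for other metals had a median of 0.01, and the zinc transporter *ttm-1* (−0.20) was the 1 nominally lower.

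*nspc-12* (chromosome X, 12356194 to 12356681) belongs to a family of small peptides found only in nematodes. It had 18.9, 17.7, 30.8 and 20.7 RPKM in the libraries labelled *cat-2* RNAi, against 8.09, 6.60, 4.88 and 6.10 RPKM in EV. Even the lowest of the 4 was above the highest EV library by more than the spread within EV. The means were 22.03 ± 5.99 and 6.42 ± 1.33 RPKM (SD, n = 4 each), with a log2 fold change of 1.69 ± 0.24 (SE) and an adjusted p of 0.0367 by limma. The *cat-1* RNAi libraries were at 10.2 ± 3.37 RPKM, and *cat-2* RNAi differed from them by 1.104 (adjusted p = 0.549). The call held in 9 of 23 alternative settings. It held with only the 8 libraries compared (adjusted p = 0.0301) and failed with median-of-ratios scaling (0.0675) and quantile normalization (0.0718). It failed without *cat-2* RNAi replicate 1, 3 or 4 (adjusted p = 0.0678, 0.095 and 0.201), EV replicate 2, 3 or 4 (0.131, 0.166 and 0.191) and *cat-1* RNAi replicate 1 or 2 (0.0556 and 0.0985).

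Its neighbor *nspc-13*, 745 bases away on the other strand, had 39.9, 35.4, 33.0 and 40.5 RPKM in the libraries labelled *cat-2* RNAi, against 25.9, 27.2, 29.9 and 20.1 RPKM in EV. The groups did not overlap, but the log2 fold change of 0.53 did not pass (adjusted p = 0.289). It was the only 1 of 11 tested neighbors of *nspc-12* within 20 kb with an unadjusted p under 0.05. In the *nspc* family 18 of 20 genes were tested, 16 of them had a log2 fold change above 0, and 5 were nominally higher (27.8%, beside 4.89% of all tested features) and 0 lower. The 5 include *nspc-12*, whose call led to the choice of the family, so the share is not independent of that call. The others were *nspc-13*, *nspc-16* (0.88), *nspc-1* (0.32) and *nspc-6* (0.25). The family had 11 higher without *cat-2* RNAi replicate 2. It had 4 higher without *cat-2* RNAi replicate 1 or 4 or EV replicate 1, 3 or 4. The family median was 0.20 (0.10 without *cat-2* RNAi replicate 1), against 0.01 over all tested features. Its summed level was 808 RPKM upon *cat-2* RNAi, against 690 RPKM in EV. The related *nspd* genes, which are expressed in the male germ line, had a median of −0.58, with 2 of 8 nominally lower and 0 higher. Family members resemble each other in sequence, so reads may have been split between them.

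**Figure D3:**
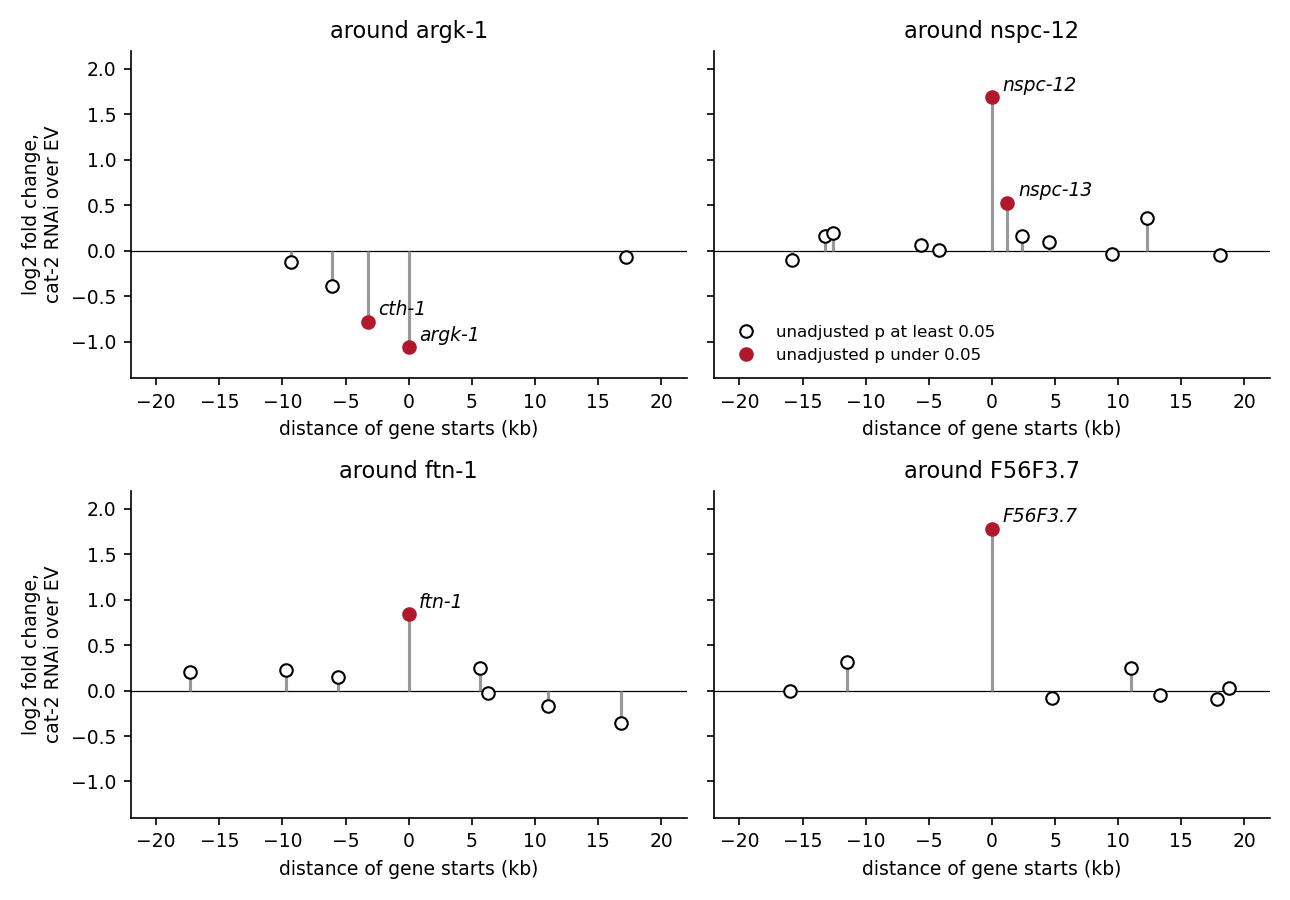
Log2 fold change (*cat-2* RNAi over EV) of the tested genes within 20 kb of *argk-1*, *nspc-12*, *ftn-1* and F56F3.7, by the distance between gene starts in kb along the chromosome. Filled points have an unadjusted p under 0.05, which of the neighbors only *cth-1* and *nspc-13* reached.

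F56F3.7 is annotated as a noncoding RNA gene (chromosome III, 4458110 to 4458306). It had 8, 8, 4 and 10 reads in the libraries labelled *cat-2* RNAi, against 1, 1, 1 and 0 reads in EV. These are 2.09, 1.96, 1.08 and 2.59 RPKM in the libraries labelled *cat-2* RNAi, against 0.263, 0.264, 0.260 and 0 RPKM in EV. The groups did not overlap, and the ratio of reads was 9.95 (3.09 to 50.9, from counting error). Its log2 fold change was 1.78 ± 0.24 (SE) with an adjusted p of 0.0288 by limma, and it passed the minimum only through RNAi libraries. The *cat-1* RNAi libraries had 13 reads and 0.828 ± 0.333 RPKM (SD, n = 4), and the difference of *cat-2* RNAi from them was 0.86 (adjusted p = 0.648). All 7 tested neighbors within 20 kb had an unadjusted p of at least 0.05. The call held in 10 of 23 alternative settings. It failed with only the 8 libraries compared (adjusted p = 0.0797). It failed without *cat-2* RNAi replicate 1 or 4 (adjusted p = 0.0678 and 0.17), EV replicate 2, 3 or 4 (0.0653, 0.101 and 0.13) and *cat-1* RNAi replicate 1 (0.053), and with voom on the recovered reads (0.316).

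*igdb-1* had the lowest fold change of all tested features and was singled out after its values were seen. It encodes a protein with immunoglobulin and DB domains and lies on chromosome IV from 12479011 to 12482426. It had 84, 0, 0 and 0 reads in replicates 1 to 4 labelled *cat-2* RNAi, against 205, 214, 237 and 350 reads in EV. The *cat-1* RNAi libraries had 0, 0, 312 and 0 reads. The 3 *cat-2* RNAi libraries with no read allow at most 0.0468 to 0.0517 RPKM (3 reads), against 3.43, 3.602, 3.93 and 5.64 RPKM in EV, and replicate 1 was at 1.40 RPKM. The log2 fold change of −2.71 ± 0.72 (SE) did not pass (adjusted p = 0.461), but did without *cat-1* RNAi replicate 3, which holds all reads of its group. Libraries of the same RNAi label were thus split between no read and a clear signal, so the fold change averages over unlike libraries. Whether the worms of all libraries carried the same *igdb-1* locus was not tested. The neighbors *igdb-2* (0.19), T04A11.1 (−0.11), T04A11.4 (−0.06) and *him-6* (0.01) did not pass either threshold.

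At an unadjusted p under 0.05, 643 features were higher upon *cat-2* RNAi (4.89% of those tested) and 520 lower (3.95%). Without *cat-2* RNAi replicate 3 the higher count was 1152, and without EV replicate 4 it was 414. All 4 libraries labelled *cat-2* RNAi lay above every EV library for 399 features (3.03%) and below every EV library for 319 (2.42%). The differences were small, with a median size of 0.25 on the log2 scale among the 1163 at an unadjusted p under 0.05, and 13 of those were at least 1 above and 11 at least 1 below. By chromosome the share higher ran from 3.69% (X) to 5.17% (I) and the share lower from 2.61% (X) to 4.89% (IV).

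The split between higher and lower features differed between classes of expression level, and by scaling. Of 1372 features with a mean of at least 100 RPKM, 30 were nominally higher (2.19%) and 159 lower (11.6%), and 45 of the 159 encode ribosomal proteins. In the class from 30 to 100 RPKM, 218 of 3445 features were higher and 100 lower. Without *cat-2* RNAi replicate 2 the highest class held 43 higher and 144 lower features. Under quantile normalization it held 51 higher and 57 lower, and with median-of-ratios scaling 19 higher and 170 lower.

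**Figure D4:**
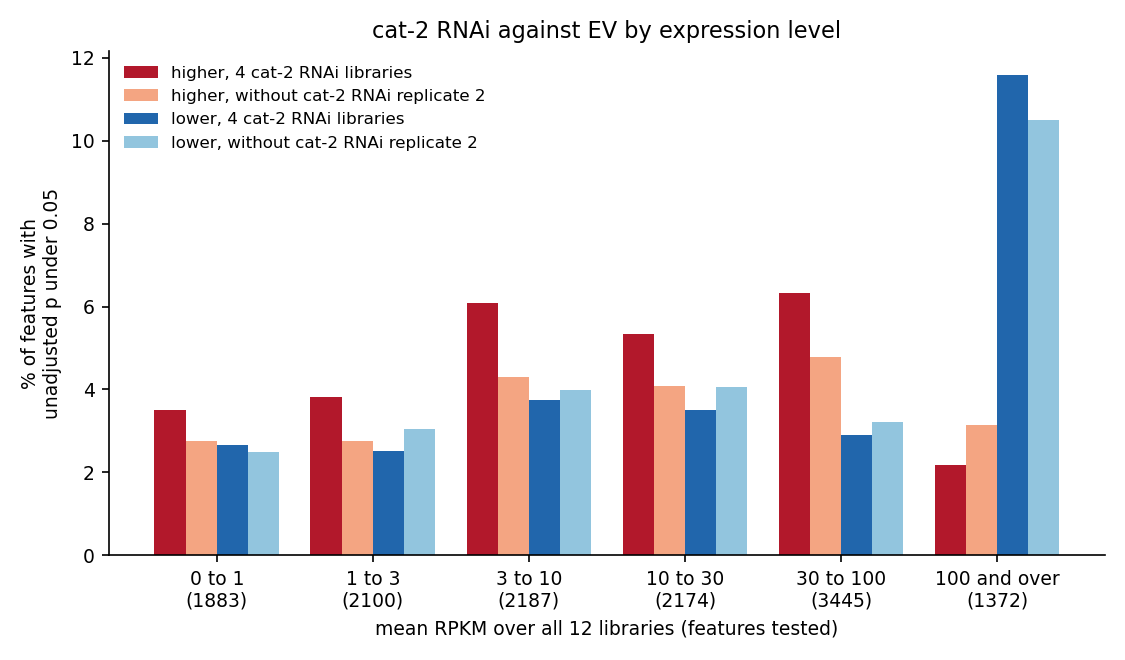
Percent of tested features higher (red) or lower (blue) upon *cat-2* RNAi than in EV at an unadjusted limma p under 0.05, by mean RPKM over all 12 libraries, with all 4 *cat-2* RNAi libraries (dark) and without replicate 2 (light). In the highest class 11.6% of 1372 features were lower and 2.19% higher.

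Cuticle collagens, which the epidermis secretes to build the worm's outer coat, made up 4 of the 12 genes with the smallest p among those lower. *col-20* had 51.2, 53.99, 55.1 and 50.4 RPKM in the libraries labelled *cat-2* RNAi, against 68.9, 70.5, 82.8 and 93.9 RPKM in EV. *col-119* had 445, 404, 422 and 405 RPKM in the libraries labelled *cat-2* RNAi, against 484, 514, 537 and 592 RPKM in EV. In both genes the *cat-2* RNAi libraries varied less than the EV libraries and did not overlap with them. The log2 fold changes were −0.57 (*col-20*), −0.34 (*col-119*), −0.72 (*col-93*) and −0.25 (*col-140*), with adjusted p from 0.169 to 0.289 by limma. Of 84 tested collagens 16 were nominally lower (19.1%, beside 3.95% of all tested features) and 2 higher, with a median of −0.13. The lower count was 28 without *cat-2* RNAi replicate 1, and 13 without *cat-2* RNAi replicate 4 or EV replicate 4. The higher count was 7 without *cat-2* RNAi replicate 3. In *cat-1* RNAi against the same EV libraries 4 collagens were lower and 5 higher. Here and below, counts of that comparison stand without its share over all tested features, which is not given. Whether a list leaned beyond that share in *cat-1* RNAi therefore cannot be read from them. At an adjusted p under 0.05 by limma, that comparison had 0 genes. Summed over the list, the level was 7665 to 9174 RPKM upon *cat-2* RNAi, against 8694 to 9388 RPKM in EV, and replicate 1 labelled *cat-2* RNAi was the highest of its group. The 7 epidermal markers, which include collagens, summed to 169 to 190.1 RPKM in the libraries labelled *cat-2* RNAi, against 203 to 210.3 RPKM in EV. The collagen *col-19* carried that difference, with a mean of 118 RPKM upon *cat-2* RNAi, against 145 RPKM in EV. The other 6 epidermal markers summed to 56.2 to 75.6 RPKM in the libraries labelled *cat-2* RNAi, against 60.1 to 64.3 RPKM in EV, and *lin-26*, *dpy-7* and *rol-6* had the higher mean upon *cat-2* RNAi. In whole worms, fewer cells of a type and less RNA in each of them cannot be told apart.

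Genes of 1-carbon, phospholipid and propionate metabolism were also among the 12 lower genes with the smallest p. *pmt-2*, a phosphoethanolamine methyltransferase on the way to phosphatidylcholine, had 96.3, 107, 103.7 and 98.6 RPKM upon *cat-2* RNAi, against 115, 120.1, 120.1 and 125 RPKM in EV. *folt-2*, a folate transporter gene, had 8.45, 9.39, 10.6 and 7.23 RPKM upon *cat-2* RNAi, against 12.03, 21.1, 14.6 and 16.17 RPKM in EV. *ech-6*, an enoyl-CoA hydratase gene, had 147, 152, 160.1 and 144 RPKM upon *cat-2* RNAi, against 168, 181, 169.9 and 173 RPKM in EV. In all of these the groups were separate, with log2 fold changes of −0.24 (*pmt-2*), −0.79 (*folt-2*) and −0.20 (*ech-6*) and adjusted p of 0.169, 0.289 and 0.289. *pmt-2* passed without *cat-2* RNAi replicate 2 (adjusted p = 0.0491). In the *cat-1* RNAi libraries *folt-2* was at 9.80 ± 1.93 RPKM and *ech-6* at 149 ± 4.60 RPKM (SD, n = 4), beside the same EV libraries.

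Among 26 tested genes of the methionine cycle and phosphatidylcholine synthesis, 6 were nominally lower (23.1%, beside 3.95% of all tested features) and 0 higher. Their median was −0.05, and 3 were lower without EV replicate 3. The 6 include *nhr-114* (−0.60), a nuclear receptor gene, *gcst-1* (−0.15) of the glycine cleavage system and the S-adenosylmethionine synthetase gene *sams-3* (−0.12). Of 14 propionate genes 5 were nominally lower (35.7%) and 0 higher, and 3 were lower without *cat-2* RNAi replicate 3. In *cat-1* RNAi against the same EV libraries 5 propionate genes were lower and 0 higher. The methionine and phosphatidylcholine list had 4 lower and 0 higher there. *acdh-1*, the acyl-CoA dehydrogenase gene of the alternative propionate breakdown route, had 54.5, 67.3, 59.9 and 47.02 RPKM upon *cat-2* RNAi, against 66.4, 113, 91.7 and 103 RPKM in EV. It overlapped with EV in replicate 2 and stood at −0.69, *hphd-1* (listed as Y38F1A.6) of the same route at −0.59 and *pccb-1* of the canonical route at −0.12. None of these passed the adjusted test. *acdh-1* was at 42.0 ± 11.7 RPKM in the *cat-1* RNAi libraries, with *cat-2* RNAi above *cat-1* RNAi by 0.47 (adjusted p = 0.775).

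The other lower genes of the 12 were C16B8.3 (−0.26), Y51H7C.1 (−0.38) and Y52E8A.3 (−0.95). C16B8.3 had 31.4 to 33.9 RPKM in the libraries labelled *cat-2* RNAi, against 37.5 to 40.1 RPKM in EV, a narrow spread on both sides (adjusted p = 0.0625). Among the 12 higher genes, *rict-1*, the Rictor subunit of the TORC2 kinase complex, had 51.2, 51.6, 49.3 and 51.6 RPKM in the libraries labelled *cat-2* RNAi, against 45.9, 45.2, 42.9 and 44.1 RPKM in EV. *mnp-1*, which encodes a metallopeptidase homolog, had 4.66, 4.81, 3.01 and 5.19 RPKM in the libraries labelled *cat-2* RNAi, against 1.90, 2.52, 1.95 and 1.41 RPKM in EV. Fold changes were 0.19 for *rict-1*, 1.00 for *mnp-1*, 1.00 for T26E3.7, 0.82 for W01C9.2 and 0.24 for *tbc-14*, a TBC-domain gene, and their adjusted p lay between 0.289 and 0.329. By the choice of small p, all 24 of these genes had groups that did not overlap.

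Ribosomal protein genes had a lower summed level in every library labelled *cat-2* RNAi than in any EV library, and the lowest in replicate 2. Their summed level was 103765, 77678, 105317 and 96976 RPKM in replicates 1 to 4 labelled *cat-2* RNAi, against 109072, 106000, 107692 and 107264 RPKM in EV. Nominally, 45 of 83 tested genes were lower (54.2%) and 0 higher, with a median of −0.17, and 35 genes had all 4 libraries below every EV library. Over all tested features these shares were 3.95% and 2.42%, and 11.6% were lower in the class of at least 100 RPKM. *rpl-3*, for example, had 1229.7, 1201, 1297 and 1189 RPKM in the libraries labelled *cat-2* RNAi, against 1359.8, 1323, 1405 and 1387 RPKM in EV (log2 fold change −0.16, adjusted p = 0.488). Without *cat-2* RNAi replicate 2 the count was 28 and the median −0.09. Without EV replicate 1, 3 or 4 it was 23, 25 or 20, and under quantile normalization it was 5, with a median of −0.05. The list had 3 lower and 0 higher members in *cat-1* RNAi against the same EV libraries, with a median of −0.07. The summed level in *cat-1* RNAi replicates 1 to 4 was 96294, 102271, 110950 and 104418 RPKM, all but replicate 3 below every EV library.

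Lists of other abundant housekeeping genes leaned the same way with smaller sizes. The shares lower were 25% for oxidative phosphorylation, 22.2% for the proteasome and 17.4% for glycolysis and the citrate cycle. They stand beside 3.95% of all tested features and 11.6% of the class of at least 100 RPKM. Under quantile normalization that class held 51 higher and 57 lower, and oxidative phosphorylation 2 higher and 8 lower. For oxidative phosphorylation 13 of 52 genes were nominally lower and 0 higher (median −0.09), among them *mev-1* of complex II (−0.13) and *atp-5* of the ATP synthase (−0.12). Without *cat-2* RNAi replicate 2 these counts were 9 lower and 3 higher, and 7 and 8 were lower without EV replicate 3 or 4. For the proteasome 8 of 36 were lower and 0 higher (median −0.05), with 1 lower under quantile normalization or without EV replicate 3. Leaving out EV replicate 4 gave 4 lower, and EV replicate 1 or *cat-2* RNAi replicate 2 or 3 gave 5. For glycolysis and the citrate cycle 8 of 46 were lower and 0 higher (median −0.05), including citrate synthase (*cts-1*, −0.13), with 3 lower under quantile normalization or without EV replicate 4, and 5 without EV replicate 3 or *cat-2* RNAi replicate 2. No member of these lists passed the adjusted test. In *cat-1* RNAi against the same EV libraries 5 glycolysis and citrate cycle genes were lower and 0 higher. For oxidative phosphorylation 1 was lower and 1 higher there, and for the proteasome 0 were lower and 0 higher.

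**Figure D5:**
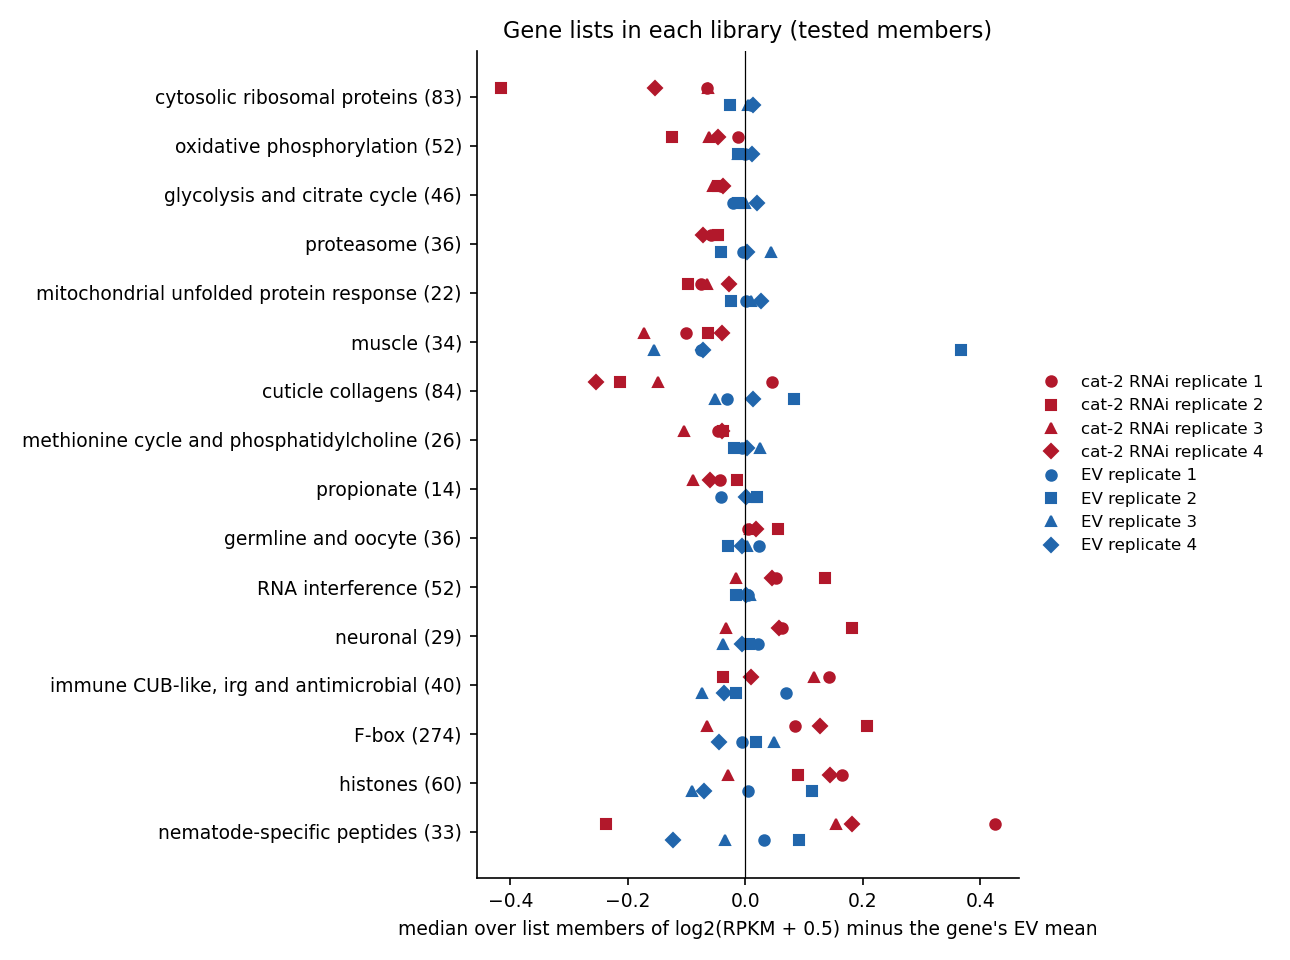
For 16 gene lists, the median over tested members of log2(RPKM + 0.5) minus the gene's EV mean in each *cat-2* RNAi (red, upper row) and EV (blue, lower row) library, with the number of tested members in parentheses. Replicate 2 labelled *cat-2* RNAi is lowest for ribosomal proteins and nematode-specific peptides, and EV replicate 2 is highest for muscle.

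Genes induced by pathogens differed between lists. Of 40 tested CUB-like, *irg* and antimicrobial genes 8 were nominally higher (20%, beside 4.89% of all tested features). In this list 1 was lower (2.5%, beside 3.95%), and the median was 0.01. *irg-4* (listed as F08G5.6), an infection response gene, had 45.0, 46.4, 48.13 and 57.9 RPKM upon *cat-2* RNAi, against 41.5, 27.4, 33.3 and 35.0 RPKM in EV. C32H11.4 had 61.3, 79.9, 72.9 and 67.6 RPKM upon *cat-2* RNAi, against 61.2, 43.04, 46.6 and 47.7 RPKM in EV. The lowest *cat-2* RNAi value of C32H11.4 thus barely exceeded EV replicate 1. Log2 fold changes were 0.53 (*irg-4*), 0.51 (C32H11.4), 0.33 (*dod-24*) and 0.28 (C17H12.8), and none passed the adjusted test. C32H11.4 did without EV replicate 1 (0.0463). Without EV replicate 2, in which *irg-4*, C32H11.4, *dod-24* and C17H12.8 were lowest, the list had 5 higher members, and without *cat-2* RNAi replicate 3 it had 3 lower. In the *cat-1* RNAi libraries *irg-4* stood at −0.16 against EV, and *cat-2* RNAi differed from *cat-1* RNAi by 0.68. Of 84 C-type lectins 6 were higher (7.14%) and 5 lower (5.95%), and 8 were lower without *cat-2* RNAi replicate 1. Of 21 *pals* genes of the intracellular pathogen response 2 were higher and 0 lower, which became 4 higher once EV replicate 2 was left out and 0 once EV replicate 3 was.

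Of 274 tested F-box genes, which encode adaptors of ubiquitin ligases, 25 were nominally higher (9.12%, beside 4.89% of all tested features) and 3 lower (1.09%, beside 3.95%), with a median of 0.08. The count of higher genes was 12 without *cat-2* RNAi replicate 2 or EV replicate 4, 13 without *cat-2* RNAi replicate 4 and 47 without *cat-2* RNAi replicate 3, whose median lay below every EV library. Examples are *fbxc-12* (0.69), *fbxb-85* (0.46) and *fbxa-150* (0.39). In *cat-1* RNAi against the same EV libraries 19 were higher and 4 lower. Among 60 histone genes 4 were higher and 1 lower, including *his-5* (0.88), and 10 were higher without *cat-2* RNAi replicate 3 and 7 without *cat-1* RNAi replicate 4. Histone genes are near-identical copies, so reads may have been split between them.

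Stress genes gave no adjusted call by limma. Of 31 tested peroxide and superoxide genes 4 were nominally lower (12.9%, beside 3.95% of all tested features) and 1 higher. Their median was −0.08. Leaving out *cat-2* RNAi replicate 2 gave 7 lower and a median of −0.01, and median-of-ratios scaling gave 8 lower. The peroxiredoxin gene *prdx-2* had 642, 618, 628 and 639 RPKM in the libraries labelled *cat-2* RNAi, against 666, 658, 717 and 723 RPKM in EV. The groups were separate, at a log2 fold change of −0.13. The glutaredoxin genes *glrx-10* and *glrx-5* stood at −0.18 and −0.24 and the glutathione peroxidase gene *gpx-6* at −0.68. Of 22 SKN-1 and glutathione genes 1 was higher (*gcs-1*, 0.12) and 1 lower (*gst-13*, −0.22). Heat shock genes had 5 of 30 lower (16.7%) and 0 higher, among them the constitutive chaperone *hsp-1* (−0.14). The list had 2 lower and 2 higher without *cat-2* RNAi replicate 2, and 3 lower and 2 higher without EV replicate 2. It had 3 lower without *cat-2* RNAi replicate 4 or EV replicate 3, and 2 without EV replicate 4. The mitochondrial unfolded protein response had 3 of 22 lower (13.6%) and 0 higher, including *hsp-60* (−0.17), and 2 to 5 lower with any 1 library left out. In *cat-1* RNAi against the same EV libraries this list had 3 lower and 0 higher. None of 23 genes of the endoplasmic reticulum response had an unadjusted p under 0.05, and *atf-6* came nearest (0.24). Of 137 cytochrome P450, UGT and GST genes 9 were higher and 6 lower, from *cyp-29A4* (0.94) to *gst-26* (−0.41).

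Neuronal genes outside the dopamine list differed little. The counts of this paragraph stand beside 4.89% (higher) and 3.95% (lower) of all tested features. None of 29 synaptic and transmitter genes had an unadjusted p under 0.05, and their median was 0.05. Of 129 neuropeptide and insulin genes 6 were higher and 2 lower, with 2 higher without EV replicate 3. The extremes of those named were *ins-2* (0.76), with 1.70, 1.502, 1.08 and 2.44 RPKM upon *cat-2* RNAi, against 1.14, 1.05, 0.188 and 0.913 RPKM in EV, and *ins-31* (−0.81). The FMRFamide-related peptide genes *flp-15* and *flp-32* stood at 0.46 and −0.68. Calcium genes had 2 of 33 higher (*ncx-3*, 0.27, and *calu-1*, 0.15) and 0 lower, with 0 to 3 higher when any 1 library was left out. Of 28 AP-1 and MAP kinase genes only *max-2* was higher (0.15), and 0 were lower. That list had 5 higher without *cat-2* RNAi replicate 3, with a median of 0.11 in place of 0.03. The RNA interference list had 3 of 52 higher and 0 lower, among them *xrn-1* (0.17) and *ergo-1* (0.07). That count depended on single libraries, with 1 higher and 3 lower without *cat-2* RNAi replicate 2, 9 higher without replicate 3, 5 without replicate 1 and 0 without replicate 4, and 1 higher and 1 lower without EV replicate 4.

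Germline and yolk genes were read at similar levels in both groups. Of 36 germline and oocyte genes 2 were higher, *egg-4* (0.16) and *glp-1* (0.09), and 0 lower, and germline markers summed to 3919 to 4105 RPKM upon *cat-2* RNAi, against 3891 to 4029 RPKM in EV. Vitellogenins, the yolk proteins made in the intestine, had 0 of 7 genes with an unadjusted p under 0.05, and *vit-2* stood at 0.05. Sperm genes were near the detection limit, with 6 of 39 lower (15.4%, beside 3.95% of all tested features) and 1 higher. Their median was −0.31, and 28 of the 39 had a log2 fold change below 0. The lower count was 13 without *cat-2* RNAi replicate 1, and 2 without *cat-2* RNAi replicate 4 or EV replicate 3. *msp-113* had 2.04, 0.424, 0.235 and 0 RPKM in the libraries labelled *cat-2* RNAi, against 1.48, 1.72, 1.24 and 2.302 RPKM in EV. The *msp* genes are near-identical copies, and replicate 1 labelled *cat-2* RNAi was at or above EV levels. For muscle 4 of 34 genes were lower and 0 higher, and 29 had a log2 fold change below 0 (median −0.09). In *cat-1* RNAi against the same EV libraries 4 muscle genes were lower and 0 higher. The list summed to 3443 to 3649 RPKM upon *cat-2* RNAi, against 3695 to 4252 RPKM in EV, so the groups did not overlap. Without EV replicate 2, which was highest for this list, 2 were lower and 2 higher, and the median was −0.01. Body-wall muscle markers summed to 393 to 418 RPKM upon *cat-2* RNAi, against 365 to 631 RPKM in EV. Intestinal, pharyngeal and pan-neuronal marker sums overlapped between the groups, and their part in the results above was not tested.

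Set directly against *cat-1* RNAi, no gene passed an adjusted p of 0.05 by limma (smallest 0.144, for *argk-1* and *cat-2*), while 848 features had an unadjusted p under 0.05 in either direction (6.44%). Of the 24 genes with the smallest p, 19 differed from *cat-1* RNAi at an unadjusted p under 0.05, but these genes were chosen on the same *cat-2* RNAi libraries. In *cat-1* RNAi against EV, 23 of the 24 had the same sign as in *cat-2* RNAi. There 10 had an unadjusted p under 0.05, and for 6 all 4 *cat-1* RNAi libraries lay outside the EV range. Both comparisons share the EV libraries on which the genes were also chosen. The differences of *cat-2* RNAi from *cat-1* RNAi were 1.28 for *cat-2*, 0.66 for *ftn-1*, 0.68 for *irg-4*, −0.67 for *cth-1* and −0.48 for *col-20*, and near 0 for *tbc-14* (0.00), *ech-6* (0.02) and *folt-2* (−0.12).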

How the data were processed

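The comparison, its gene lists and its named genes were chosen with earlier results of these data known. The authors prepared poly(A) libraries, mapped paired-end reads with CLC Genomics Workbench (build ce11 per the labels) and deposited RPKM for 12 libraries of 3 groups, labelled as 4 biological replicates each. The mapping settings, the strand setting and the handling of reads that map to several places were not stated in the sources read. Mean RPKM per group and the authors' p-values with false discovery rates, also deposited, were not used. The deposited RPKM hold whole reads: these were recovered for 100% of 20423 features (tolerance 0.0001 reads), with the mapped reads of each library. Since 1 RPKM step is 1 read, precision at low levels is set by few reads.

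Features that reached 0.5 RPKM in 4 or more of the 12 libraries were compared on log2(RPKM + 0.5), which makes fold changes of low genes smaller than their ratio of means. All 12 libraries entered 1 model in limma 3.58.1 under R 4.3.3, with trended and robust variance and Benjamini-Hochberg adjustment. The fit was run on simulated reads with 200 changed genes, drawn with the same spread in every library. The outcome is not given here, and the uneven library weights of the real data were not simulated. For single values a two-sided exact permutation test was used. Named genes are all at an adjusted p under 0.05, the 12 with the smallest p in each direction, up to 4 members of each list, the dopamine synthesis and transport genes, and family members of the called genes. There were 38 lists, of which 20 names were not found and 22 were found by synonym. Coordinates and names came from the reference annotation, which held 12505 of the tested features. Lists are described by counts and medians, with no set test. Replicates of *cat-2* RNAi differed by a chi-square per gene of 5.14 to 42.5 and those of EV by 3.48 to 9.48, above counting error, so none was counted as a repeat. The labels do not say what a replicate number shares. Deviations of *cat-2* RNAi and EV libraries of the same number correlated at −0.02 to 0.03, and the main fit used no block. The 23 alternatives were other pseudocounts (0.1 and 1 RPKM), filters (none and 2 RPKM), scalings, models, library weights, a replicate block, limma's voom on recovered reads and leaving out each of 12 libraries. Exact tests were made with scipy 1.17.1 and tables with pandas 2.3.3 and numpy 2.4.6 (Python 3.11.15).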

Additional observations from a re-analysis of the deposited data

Results flagged for a closer look

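A single library far from the other 3 of its group was looked for in 62 groups of 4, by the gap to the nearest library as a share of the group's range (Dixon's 95% critical value for 4 samples). It was found in 5, where chance alone gives about 1 in 20 groups. *rict-1* reached 0.834 upon *cat-2* RNAi, with replicate 3 lowest at 49.3 RPKM. In EV, F56F3.7 reached 0.986, since replicate 4 was at 0 RPKM while the others had 1 read each. *cat-2* in EV reached 0.944, with replicate 3 highest at 0.209 RPKM. *col-140* in EV reached 0.897, with replicate 4 highest at 645 RPKM. The summed sperm genes in EV reached 0.869, with replicate 3 lowest at 121.0 RPKM.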

How the results depend on the processing

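The count of 4 genes at an adjusted p under 0.05 was 1 with a pseudocount of 0.1 RPKM (*argk-1*) or with only the 8 libraries compared (*nspc-12*). It was 2 with median-of-ratios scaling or quantile normalization and 9 with library weights. The count was 0 with no filter, with no trend and no robust variance, or with the replicate block. At those 0 counts the unadjusted totals were 812 higher and 676 lower with no filter, 603 and 479 with no trend, and 726 and 516 with the block, and voom made 3 calls. Without single libraries the count ran from 0 to 8, the unadjusted counts from 414 to 1152 higher and 385 to 681 lower, and the features with separate groups from 545 to 1276 above and 455 to 602 below, where 3 libraries against 4 separate more easily by construction. Otherwise the cause was not tested. The labels do not say what libraries of the same replicate number share, and not every library correlated best with its own number. Under the block *argk-1*, F56F3.7, *nspc-12* and *ftn-1* each had an adjusted p of 0.0890 by limma. Whether a shared source by number exists was not tested. Of the 24 genes with the smallest p, 0 changed sign in any alternative, and of 158 other named genes 10 did. Of 161 list medians checked, from only part of the 38 lists, 1 moved by more than the spread, oxidative phosphorylation without *cat-2* RNAi replicate 2 (−0.04). The 161 thus do not stand for all lists. Some other lists had medians that moved by more than their SD over the *cat-2* RNAi libraries. Peroxide and superoxide genes went from −0.08 to −0.01 without *cat-2* RNAi replicate 2 (SD over the *cat-2* RNAi libraries 0.05). Muscle went from −0.09 to −0.01 without EV replicate 2 (SD 0.06), and the proteasome from −0.05 to −0.02 under quantile normalization (SD 0.01). Few reads limit *cat-2*, *cat-1*, *dat-1*, F56F3.7 and the sperm genes.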

Other observations

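The 24 features with an unadjusted p under 0.05 and a log2 fold change of at least 1 in size, chosen by their values, include several not yet named. H39E23.3 had 2287 reads over the libraries labelled *cat-2* RNAi, against 887 reads over EV (log2 fold change 1.31). *ces-2*, a bZIP transcription factor gene known from cell death specification, had 681 reads over the libraries labelled *cat-2* RNAi, against 295 reads over EV (1.04). Its replicate 3 labelled *cat-2* RNAi lay within the EV range. *cutl-20*, a cuticlin-like gene, had 558 reads against 232 (1.09). R12B2.8 had 12, 2, 14 and 16 reads in replicates 1 to 4 labelled *cat-2* RNAi, against 0, 0, 2 and 4 reads in EV (1.27). Its groups overlapped in *cat-2* RNAi replicate 2, and it passed the minimum only through RNAi libraries. In the other direction, T02G6.6 had 2 reads over the libraries labelled *cat-2* RNAi, against 32 reads over EV (−1.45). No library labelled *cat-2* RNAi reached the minimum for it. *nspd-3*, of the *nspd* family described above, had 10 reads, against 41 reads over EV (−1.26), and its groups overlapped. None of these features passed the adjusted test by limma. In the *cat-1* RNAi libraries *ces-2* was at 7.44 RPKM and *cutl-20* at 4.97 RPKM, beside 8.65 and 5.92 RPKM upon *cat-2* RNAi and 3.79 and 2.49 RPKM in EV.

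Other lists held few members at an unadjusted p under 0.05. Over all tested features 4.89% were higher and 3.95% lower. Lipid metabolism had 2 of 55 higher and 6 lower (10.9%), among them the fatty acid elongases *elo-2* (−0.22), *elo-5* (−0.18) and *elo-6* (−0.21). Lysosome and V-ATPase genes had 2 of 47 higher, including *vha-7* (0.12), and 4 lower, including the cathepsin B gene *cpr-5* (−0.53). Nuclear hormone receptors had 3 of 169 higher, among them *nhr-67* (0.66), and 2 lower. MATH and BATH genes had 0 of 56 higher and 2 lower. Insulin signaling and longevity genes had 4 of 30 higher (13.3%), among them *ftn-1*, *dod-6* (0.29) and the receptor gene *daf-2* (0.17). In this list 1 was lower (*pept-1*, −0.33). With any 1 of the 12 libraries left out, the higher counts ran from 1 to 5 for the insulin list, 2 to 7 for nuclear hormone receptors and 1 to 3 for lipid and for lysosome genes, and the lower counts from 5 to 9 for lipid, 3 to 6 for lysosome and 0 to 3 for MATH and BATH genes.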
